A study of Mus musculus with 11 samples.

Results

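The 8 genes described here, Hmgcs1, Fdps, Idi1, Fdft1, Sqle, Lss, Cyp51 and Insig1, were put together as genes of cholesterol synthesis and uptake, and were found on the arrays by matching probe accessions to their RefSeq symbols. All 8 of the 8 were measured, by 9 probes, out of 25998 features tested. By known function 7 encode enzymes of the sterol pathway and Insig1 encodes a regulator of it. None is an uptake receptor, so uptake genes are described below from a list of their own.

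The arrays compared the right hemisphere cortex of 22 C57/Bl6J mice aged 5 to 7 months, each on 1 of 11 two-colour Agilent arrays, which are named here by the letters A to F and I to M. The TC group held 6 mice carrying GFA2-tTa/TetO-VP16-CREB, a bigenic line in which the GFA2 promoter drives the tTa activator that switches on VP16-CREB, a version of the transcription factor CREB that is always active, in astrocytes, and they were sampled 3 days after a focal cryolesion made with dry ice held on the brain surface for 30 s. The T group held 5 mice of the same bigenic line without a lesion, the WTC group 5 wild-type mice with the lesion, and the WT group 6 wild-type mice without it. In these bulk samples fewer cells of a type and less RNA per cell cannot be told apart.

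Cells make cholesterol from acetyl-CoA through the mevalonate pathway, in which mevalonate is made and turned into isoprenoid units, these are joined to squalene, and squalene is closed to lanosterol and trimmed to cholesterol. The genes of this pathway share control by SREBP2, a membrane-bound transcription factor that SCAP escorts to the Golgi for cleavage when sterols are low and that INSIG proteins hold back when sterols are high. Because lipoproteins of the blood do not cross into the brain, the brain depends on its own synthesis, with much of it in oligodendrocytes during myelination and in astrocytes of the adult.

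Promoters of the genes are shown because the genes share their known regulator and, as described below, varied together from mouse to mouse. RefSeq promoter windows of the GRCm38.p6 build, covering 250 bases before and 50 bases after the start site, were on hand for 5 of the 8 genes. The 3 printed here, 5′ to 3′ on the strand of the gene, are those of Hmgcs1, Cyp51 and Insig1. Hmgcs1 has the 1 window with an exact match to the sterol regulatory element as spelled below. Cyp51 had the smallest p after lesion in transgenic mice, and Insig1 the widest spread among TC mice. The windows lie at chr13:119690101-119690400 (plus strand), chr5:4104648-4104947 (minus strand) and chr5:28071162-28071461 (plus strand). Capitals mark every match, on either strand, to the sterol regulatory element TCACNCCAC, the CCAAT box CCAAT, the GC box GGGCGG, the cyclic AMP response element TGACGTCA that CREB binds, and its half-site TGACG, which is also part of the full element.
Hmgcs1: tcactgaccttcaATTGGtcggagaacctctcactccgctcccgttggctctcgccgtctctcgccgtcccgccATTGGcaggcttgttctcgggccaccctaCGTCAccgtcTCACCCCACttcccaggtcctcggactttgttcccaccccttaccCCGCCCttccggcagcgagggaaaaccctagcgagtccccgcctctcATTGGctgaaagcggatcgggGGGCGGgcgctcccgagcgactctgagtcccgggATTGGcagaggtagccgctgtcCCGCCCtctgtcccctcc
Cyp51: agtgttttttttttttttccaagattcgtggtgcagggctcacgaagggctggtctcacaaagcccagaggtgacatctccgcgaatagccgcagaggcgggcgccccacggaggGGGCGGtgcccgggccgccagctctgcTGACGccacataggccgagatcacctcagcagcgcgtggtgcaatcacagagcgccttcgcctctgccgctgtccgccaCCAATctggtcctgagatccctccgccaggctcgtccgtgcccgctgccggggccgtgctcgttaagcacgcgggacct
Insig1: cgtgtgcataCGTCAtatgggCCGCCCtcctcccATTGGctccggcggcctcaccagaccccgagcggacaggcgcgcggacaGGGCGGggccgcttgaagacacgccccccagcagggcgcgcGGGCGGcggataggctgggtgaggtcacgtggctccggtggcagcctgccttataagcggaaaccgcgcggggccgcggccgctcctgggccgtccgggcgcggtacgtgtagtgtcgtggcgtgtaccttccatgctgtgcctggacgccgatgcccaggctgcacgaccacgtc
An exact match to the sterol regulatory element TCACNCCAC was found in 1 of the 5 windows, in Hmgcs1 at 137 bases before the start site. Of all 32851 promoter windows, 1.24% hold such a match. The CCAAT box was found in 5 of 5 windows and in 37.4% of all windows, and the GC box in 5 of 5 and in 35.7% of all. The full cyclic AMP response element was in 0 of the 5 windows and in 1.79% of all, and its half-site was in 3 of 5, those printed above, and in 20.8% of all. These matches describe letters in a short window and are no evidence of binding. Variant spellings of the elements were not searched for, so a window without a match may still hold an element.

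Signal stood well above background at 56.6% to 65.3% of spots, depending on the channel, and 0 spots were saturated. The probes standing for the 8 genes were well above background in 22 of 22 channels. The second probe of Fdft1, which was dimmer, was well above background in 21. Arrays A to F formed 1 slide and arrays I to M another, with all WT mice on the first. For 1 mouse on each of arrays I, J and K, the label of channel 2 names another group than the title, and the titles were followed here. The TC mouse of array I stood apart from the remaining TC mice in some marker lists and not in others. Its mean log2 level over 9 microglia and macrophage markers was 11.29, where the remaining 5 TC mice had 12.34 to 13.30 and T mice 11.34 to 11.54, and over 6 dividing-cell genes it was 6.91, where T mice had 6.74 to 7.48. Its mean over 10 astrocyte markers, 13.41, was above all T mice (12.77 to 12.97), and its mean over 8 neuron markers, 13.82, was below all T mice (14.23 to 14.70). On the first principal component, the main axis of variation over all features, this mouse stood at -29. T mice stood there at -43.2 to -23.7 and the remaining 5 TC mice at 0.1 to 85.7. Mean levels of 9 markers of striatum and choroid plexus, tissues next to cortex, ran from 9.33 to 12.51 in TC, 9.66 to 11.78 in T, 9.35 to 12.83 in WTC and 9.38 to 13.16 in WT mice, so the pieces differed in them within every group. Of 10 astrocyte markers 8 had log2 ratios above 0 in TC over T and 9 in WTC over WT mice, with medians of 0.48 and 0.63. The largest were those of Gfap, the intermediate filament protein of reactive astrocytes, with 2.41 ± 0.45 in TC over T and 3.47 ± 0.46 in WTC over WT mice (SE; limma, adjusted p = 0.213 and 0.0564).

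Values per mouse are log2 channel intensities after normalization with the dye effect of the probe removed, and they compare mice for 1 probe, not genes with each other. Lesioned mice differed from each other more than intact mice did, except for Lss in transgenic mice, and 1 WTC mouse, that of array M, had the lowest level of all 22 mice for each of the 8 genes.

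Insig1 (chr5:28071412-28078662 in GRCm38.p6, as all positions here) encodes the ER protein that retains SCAP and so restrains SREBP2, and is itself a target of SREBP. In TC mice its level was 7.93 at the lowest, 8.69 at the median and 9.08 at the highest. In T mice it was 8.84, 8.80, 8.84, 8.63 and 8.89. In WTC mice it was 8.39, 8.97, 8.57, 8.07 and 7.86. In WT mice it was 8.91 at the lowest, 9.0 at the median and 9.18 at the highest. The 3 TC mice of arrays C, I and J were above all T mice, and those of arrays K, L and M were below all T mice. By the titles, the first 3 shared an array with an intact mouse and the other 3 with a WTC mouse. In this split the mouse and its array partner cannot be told apart. Of the WTC mice 4 of 5 lay below all WT mice, and the WTC mouse of array B lay inside their range. The SD was 0.46 in TC, 0.10 in T, 0.43 in WTC and 0.11 in WT mice.

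Fdft1 (chr14:63145150-63181687) encodes squalene synthase, which joins a pair of farnesyl diphosphate molecules into squalene. Its level in TC mice was 11.34 at the lowest, 11.90 at the median and 12.43 at the highest, and in T mice it was 12.43, 12.19, 12.21, 12.15 and 12.39. In WTC mice it was 12.04, 12.08, 11.94, 11.62 and 10.61, and in WT mice 12.04 at the lowest, 12.22 at the median and 12.54 at the highest. Of the TC mice 5 of 6 were below all T mice, the mouse of array C being at the top of their range, and the WTC mouse of array M was 1.01 below the next WTC mouse. The SDs were 0.36 in TC, 0.13 in T, 0.61 in WTC and 0.17 in WT mice. These levels are those of the brighter Fdft1 probe (mean log2 intensity 12.03, against 6.60 for the dimmer). In the fit of log2 ratios described below, the dimmer probe had -0.06 in WTC over WT and -0.02 in TC over T mice. The brighter probe had -0.21 and -0.18.

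Cyp51 (chr5:4080674-4104697) encodes the lanosterol demethylase, the first enzyme to trim lanosterol. In TC mice it stood at 9.04, 9.04 and 9.02 on arrays C, I and J and at 8.32, 8.65 and 8.47 on arrays K, L and M. In T mice it was 8.56, 8.84, 8.69, 8.89 and 8.67. The first 3 TC mice were above every T mouse, and 2 of the other 3 below every T mouse. Here too the first 3 shared arrays with intact mice and the other 3 with WTC mice. In WTC mice it was 8.72, 8.57, 8.42, 8.40 and 8.09, and in WT mice 8.47 at the lowest, 8.82 at the median and 8.89 at the highest, so that 3 of 5 WTC mice lay below all WT mice.

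For the early enzymes the groups overlapped. Hmgcs1 (chr13:119690351-119708260), which makes HMG-CoA in the cytosol, averaged 14.27 ± 0.25 in TC, 14.48 ± 0.23 in T, 14.25 ± 0.31 in WTC and 14.58 ± 0.15 in WT mice (SD, n = 6, 5, 5 and 6). Idi1 (chr13:8885606-8892396), which interconverts the first isoprenoid units, averaged 11.86 ± 0.30 in TC, 11.78 ± 0.17 in T, 11.59 ± 0.28 in WTC and 11.87 ± 0.16 in WT mice. Fdps (chr3:89093588-89101967), which makes farnesyl diphosphate, averaged 12.90 ± 0.23 in TC, 13.03 ± 0.12 in T, 12.81 ± 0.39 in WTC and 13.10 ± 0.14 in WT mice.

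The group means of the enzymes around squalene closure were closest to each other. Sqle (chr15:59315092-59331193), the squalene epoxidase, averaged 12.44 ± 0.19 in TC, 12.50 ± 0.16 in T, 12.50 ± 0.43 in WTC and 12.55 ± 0.14 in WT mice. Lss (chr10:76531565-76557139), which closes squalene epoxide to lanosterol, averaged 8.57 ± 0.17 in TC, 8.45 ± 0.26 in T, 8.46 ± 0.23 in WTC and 8.53 ± 0.10 in WT mice. Sqle had both its highest and its lowest level among WTC mice, at 13.01 on array K and 11.87 on array M. Lss was the 1 gene of the 8 whose SD was larger in T than in TC mice.

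**Figure D1:**
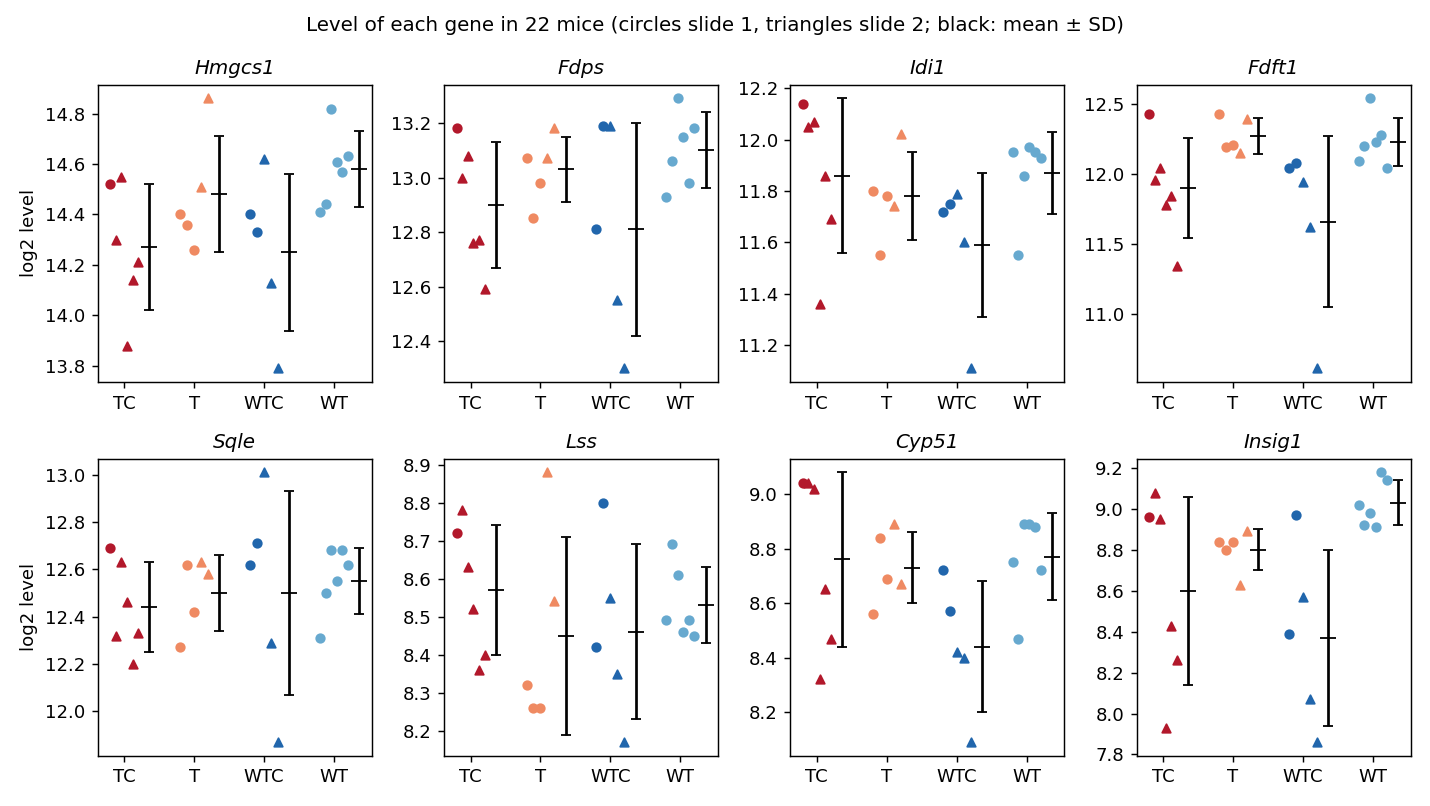
Log2 level of each of the 8 genes (y axis, own scale per panel) in the mice of the TC, T, WTC and WT groups (x axis), with circles for slide 1, triangles for slide 2 and black bars for the mean ± SD. The lesioned groups spread more widely except for Lss in TC against T mice, and the lowest WTC triangle in every panel is the mouse of array M, as for Fdft1 at 10.61.

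The SD was larger in WTC than in WT mice for 8 of 8 genes, against 78% of all features, and larger in TC than in T mice for 7 of 8, against 83.4% of all features. Wider spread after the lesion was common to most features. The median SD of the 8 genes was 0.27 in TC, 0.15 in T, 0.35 in WTC and 0.14 in WT mice, and that of all features was 0.24 in TC, 0.13 in T, 0.24 in WTC and 0.14 in WT mice. Without the WTC mouse of array M the SD was larger in WTC than in WT mice for 6 of 8 genes, against 70.1% of all features, the exceptions being Idi1 and Cyp51.

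Against the range of the 11 intact mice, the WTC mouse of array M had 8 of 8 genes below it, while 37.5% of all features were below the range in that mouse and 31.3% above. The TC mouse of array K had 6 of 8 below, against 37.0% of all features. The TC mouse of array L and the WTC mouse of array L had 5 of 8 below each, against 18.5% and 24.4% of all features. At the other end, the TC mouse of array C had 0 of 8 below and 3 above, against 13.6% and 16.1% of all features. Over the 11 lesioned mice the share of all features below the intact range ran from 13.6% to 37.5%. By gene, Fdft1 was below the intact range in 8 of 11 lesioned mice, Insig1 in 7, Fdps in 6 and Hmgcs1 in 5, and Lss in 1, and these genes were above it in 0. The remaining genes went both ways: Idi1 and Sqle were each below it in 2 and above it in 3, and Cyp51 below in 4 and above in 3. No such count by gene was made over all features.

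The question of the first comparison is what the lesion did in wild-type cortex. In the fit of log2 ratios over all 11 arrays, 0 of 8 genes passed an adjusted p of 0.05 in WTC over WT mice, where 0.0231% of all features passed (limma, Benjamini-Hochberg). That share depends on single arrays: the 6 passing features became 1433 without array I, 1558 without array K, 1741 without arrays I, J and K, 2128 within slide 1 and 0 without array B, C, J or L, while 0 of 8 genes passed in each of these fits. The log2 ratios ran from -0.21 ± 0.15 for Fdft1 and -0.20 ± 0.20 for Insig1 to 0.12 ± 0.17 for Sqle (SE). Their median was -0.05, beside a median of 0 over all features, and 6 of 8 were below 0, as were 49.4% of all features. At an unadjusted threshold of 0.05, 0 of 8 passed, against 19.5% of all features. The 95% interval for Fdft1 ran from -0.55 to 0.12 and that for Cyp51 from -0.23 to 0.24.

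This comparison rests on few direct pairings, since WTC and WT mice shared an array only on A and B. On array A, 7 of 8 log2 ratios were below 0, with Insig1 lowest at -0.63. On array B, 2 of 8 were below 0. Those 2 arrays lie on slide 1, and a fit within slide 1 gave a median of -0.01.

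A separate-channel fit, which also uses levels across arrays, gave other values here. In it the log2 ratios of WTC over WT mice were below 0 for 8 of 8 genes, as for 53.3% of all features, with a median of -0.23. Insig1 passed, with a log2 ratio of -0.53 ± 0.19 (SE; limma, adjusted p = 0.0433), and so did 26.6% of all features. Fdft1 had -0.46 ± 0.19 and did not pass (adjusted p = 0.0718). With a slide term in that fit 0 of 8 genes passed and the median was -0.16, and with array as a random block but without the WTC mouse of array M Insig1 had -0.45 ± 0.18 (adjusted p = 0.094) and again 0 of 8 passed. Of the 5 WTC mice 3 were on slide 2, while all WT mice were on slide 1.

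In TC over T mice, the lesion in transgenic cortex, 0 of 8 genes passed the adjusted threshold in the fit of ratios, as did 0% of all features (limma). The median was 0.07, beside 0 over all features, and 3 of 8 were below 0, as were 48.8% of all features. Cyp51 had the smallest p, with a log2 ratio of 0.28 ± 0.10 (SE; adjusted p = 0.363), and was the 1 gene under an unadjusted 0.05, a level that 11.9% of all features reached. Idi1 had 0.28 ± 0.17 (adjusted p = 0.542), and Fdft1 was lowest with -0.18 ± 0.15 (adjusted p = 0.656). In the separate-channel fit 0 of 8 passed, against 7.32% of all features, and Cyp51 had 0.09 ± 0.12.

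The direct pairings of TC and T mice, on arrays I and J, are both among the 3 arrays whose labels conflict. With the channel 2 labels in place of the titles, the log2 ratios of TC over T were above 0 for all 8 genes, with a median of 0.42 and 5 of 8 under an unadjusted 0.05. Without arrays I, J and K all 8 were above 0, with a median of 0.31 and 3 of 8 under an unadjusted 0.05. Under either choice the median over all features was 0.01, and 0 of 8 genes and 0 of 25998 features passed after adjustment. The share of all features above 0 or under an unadjusted 0.05 was not computed for these refits. Whether the 8 genes stand out from other features in them is therefore not known.

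In T over WT mice, the transgene without a lesion, 0 of 8 genes passed, as did 0% of all features, and 0 of 8 had an unadjusted p under 0.05, against 2.93% of all features. The fit gives each gene 1 variance for all groups, so these p-values also draw on the wider spread of lesioned mice. Of the log2 ratios 7 of 8 were below 0, as were 50.8% of all features, with a median of -0.11 beside 0 over all features. Insig1 was lowest, with -0.29 ± 0.18 (SE; limma, adjusted p = 0.982), and Fdft1 was the gene above 0, with 0.15 ± 0.13. With the channel 2 labels of arrays I, J and K, 7 of 8 were below 0, with a median of -0.21. In that refit 3 of 8 were under an unadjusted 0.05. Without those arrays 7 of 8 were below 0, with a median of -0.15 and 0 of 8 under that level. Medians over all features were 0 and -0.01, and 0 of 8 genes passed in either refit. The share of all features under that level was not computed for them. On arrays D, E and F, which pair T with WT mice, 7, 8 and 7 of the 8 ratios were below 0. In the same comparison myelin and oligodendrocyte markers were below 0 for 10 of 10 (median -0.43) and striatum and choroid plexus markers for 9 of 9 (median -1.01, with 5 of 9 under an unadjusted 0.05), and their part in the values of the 8 genes was not tested.

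The levels of Insig1 did not overlap between T mice (8.63 to 8.89) and WT mice (8.91 to 9.18), with a gap smaller than the SD of either group. Such separation was found for 1 of 8 genes and for 0.573% of all features. The same rule gave 0 of 8 genes in WTC against WT mice, where 16.4% of all features were separated, 0 of 8 in TC against T mice (4.88%) and 0 of 8 in TC against WTC mice (0.435%). The sex of the mice is not labelled, and Ddx3y, a Y-linked gene, had log2 levels of 6.34 in 1 T mouse and 6.41 and 5.59 in 2 WT mice, against 9.93 to 11.22 in the other T mice and at most 10.93 in the other WT mice, the lowest of which had 10. That T mouse had the lowest Insig1 level of its group and those WT mice the 2 highest of theirs, and the part of this in the separation was not tested. The separate-channel fit gave 0 of 8 passing, as 0% of all features, with -0.25 ± 0.18 for Insig1 (adjusted p = 1).

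In TC over WTC mice, the transgene after the lesion, 0 of 8 genes passed, as did 0% of all features, and 0 of 8 had an unadjusted p under 0.05, against 14.8% of all features. The median log2 ratio was 0.07, beside -0.02 over all features, and 3 of 8 were below 0, as were 55.6% of all features. Values ran from -0.17 ± 0.15 for Hmgcs1 to 0.18 ± 0.13 for Fdft1 (SE). In the separate-channel fit 0 of 8 passed, against 0.162% of all features, and Cyp51 had 0.26 ± 0.12 (limma, adjusted p = 0.283). Striatum and choroid plexus markers were below 0 for 9 of 9 in TC over WTC mice, with a median of -2.26 and 8 of 9 under an unadjusted 0.05, and myelin and oligodendrocyte markers for 9 of 10, with a median of -0.33. The part of these markers in the values of the 8 genes was not tested.

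The 3 arrays that by their titles pair TC with WTC mice differed in direction, and array K is 1 of those whose labels conflict. On array K all 8 ratios were below 0, between -0.75 for Hmgcs1 and -0.03 for Lss. On array M all 8 were above 0, between 0.23 for Lss and 0.73 for Fdft1, and on array L 1 of 8 was below 0. Array M carries the WTC mouse with the lowest levels, and array K the TC mouse with the lowest mean level of its group, at 10.87. Leaving out array M turned Idi1 to -0.03, Fdft1 to -0.02, Lss to -0.04 and Insig1 to -0.01, and leaving out array K turned Hmgcs1 to 0.03 and Fdps to 0.12. With the channel 2 labels 0 of 8 ratios of TC over WTC were below 0, with a median of 0.21 and 2 of 8 under an unadjusted 0.05. Without arrays I, J and K 0 of 8 were below 0, with a median of 0.23 and 3 of 8 under an unadjusted 0.05. After adjustment 0 of 8 passed under either choice, where 3 of 25998 features passed with the channel 2 labels and 0 without the arrays. The median over all features was -0.01 in both refits. The share of all features below 0 or under an unadjusted 0.05 was not computed for either.

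**Figure D2:**
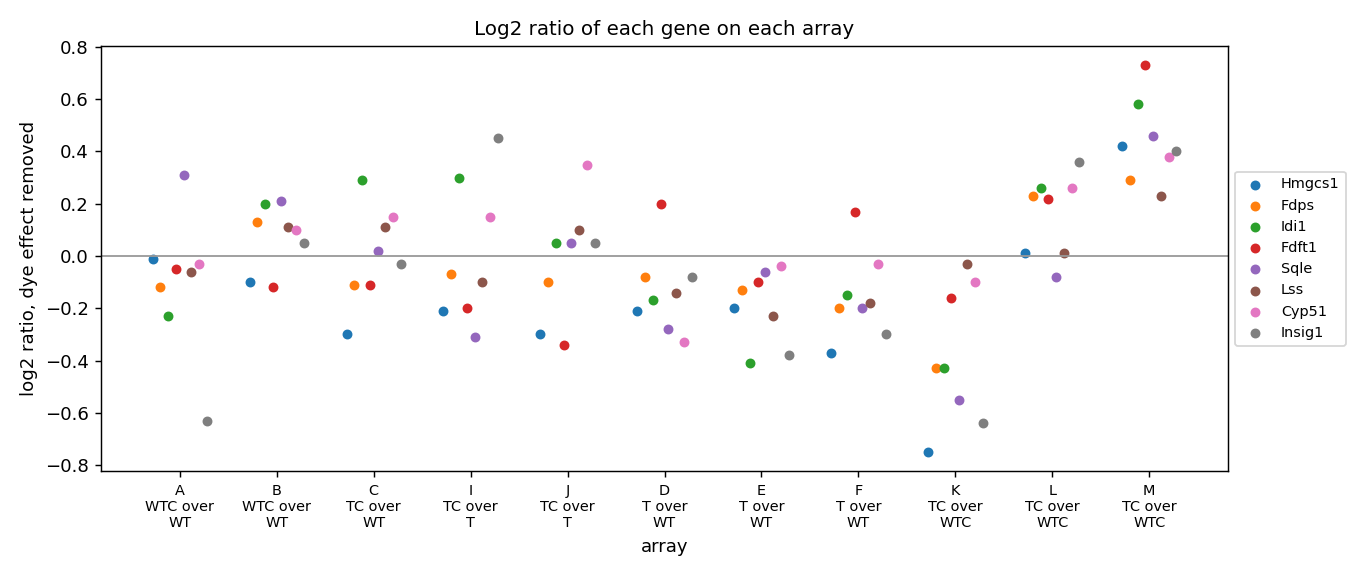
Log2 ratio of each gene on each array (y axis), first-named group over second, with the probe's dye effect removed, and 1 colour per gene. All 8 points are below 0 on array K and above 0 on array M, both of which pair TC with WTC mice by their titles, while the channel 2 label of array K names another group.

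The difference of the lesion effects (TC over T, minus WTC over WT) asks whether the transgene altered the response to the lesion. It passed for 0 of 8 genes and 0% of all features in the fit of ratios, and for 0 of 8 genes and 0% of all features in the separate-channel fit (limma). The median was 0.10, beside -0.02 over all features, with 1 of 8 below 0, as were 54.6% of all features. Insig1 had the largest value, 0.39 ± 0.23 (SE; adjusted p = 0.807), and Cyp51, at 0.27 ± 0.12, was the 1 gene under an unadjusted 0.05, against 5.33% of all features (adjusted p = 0.807). With the channel 2 labels of arrays I, J and K, 0 of 8 were below 0. Their median was 0.38, and 5 of 8 were under an unadjusted 0.05. Without those arrays 0 of 8 were below 0, with a median of 0.32 and 4 of 8 under that level. The median over all features was -0.01 in each refit, and 0 of 8 genes passed after adjustment. The share of all features under that level was not computed for these refits. Both lesion comparisons enter this difference, so its values are not separate evidence from them.

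**Figure D3:**
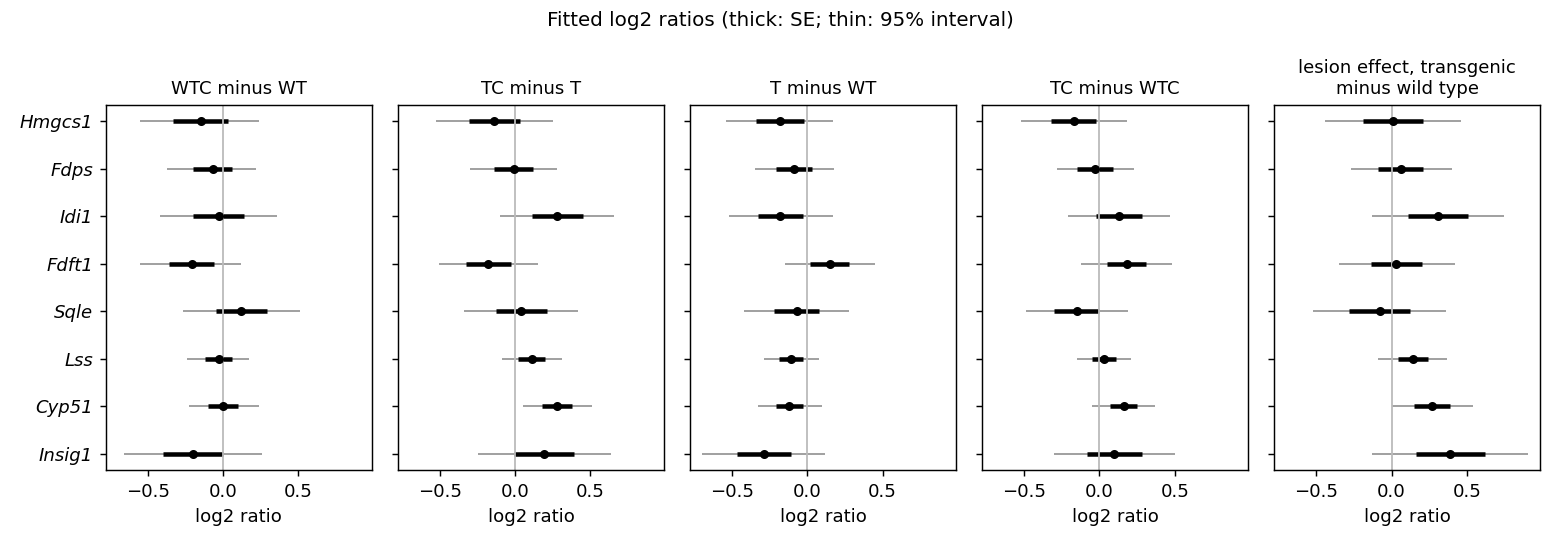
Fitted log2 ratio of each gene (x axis) in the 5 comparisons, with the SE as a thick bar and the 95% interval as a thin line. None passed after adjustment, and the interval of Cyp51 in TC minus T mice ran from 0.05 to 0.51.

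The table of comparisons that the authors deposited holds other values for these probes. In the authors' deposited table the log2 ratio of WTC over WT was below 0 for all 9 probes, as for 57.6% of all probes set beside it, with -0.71 for Insig1, -0.66 for the brighter and -0.05 for the dimmer probe of Fdft1, and -0.42 for Cyp51. For TC over T the authors' deposited table lists values from -0.35 for Fdft1 to 0.20 for Idi1, with no adjusted p under 0.45. For TC over WTC the authors' deposited table lists values above 0 for all 9 probes, and Cyp51 with 0.54 (adjusted p = 0.018) and Idi1 with 0.44 (adjusted p = 0.037) are the 2 under 0.05, as are 16.5% of all the probes set beside it. Across features, which are not independent replicates, its values correlated with those of the separate-channel fit at 0.97, 0.97 and 0.92 in the 3 comparisons and with those of the ratio fit at 0.87, 0.90 and 0.87. The 2 passing values were 0.26 for Cyp51 and 0.22 for Idi1 in the separate-channel fit, where neither passed.

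The 8 genes varied together among the mice. With group means removed, the Pearson correlation of log2 levels was above 0 for 28 of 28 gene pairs over 22 mice, from 0.40 for Idi1 with Lss to 0.83 for Fdps with Fdft1, and its median was 0.68. In the 11 lesioned mice the median was 0.80 (0.50 to 0.92) and without the WTC mouse of array M it was 0.70 (0.28 to 0.90). In the 11 intact mice it was 0.21 (-0.57 to 0.79), with 22 of 28 pairs above 0. Fdps followed the mean of the other 7 genes most closely, at 0.89, and Lss least, at 0.61. Channels of an array share a hybridization, and some lesioned mice shared theirs with an intact mouse, others with a lesioned mouse. Lesioned mice also share the wide variation of most features. These correlations therefore describe the animals together with their arrays and have no test. None were computed for pairs of other features, so whether the 8 genes vary together more than others is not known. On the first principal component over all features, the WTC mouse of array M stood at 105.2 and the TC mouse of array K at 85.7. Both had the lowest mean level of the 8 genes in their groups. The WTC mouse of array K stood at 64.6, though its mean level of the 8 genes was 11.26.

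The genes whose levels were most like the mean of the 8 over 22 mice were Nsdhl at 0.92, 2210408I21Rik at 0.90, Gnai1 at 0.89, Tvp23b at 0.88 and Rptor at 0.88 (Pearson correlation). With group means removed they were Sc5d at 0.91, Map1lc3a at 0.90, Dgke at 0.90, Nsdhl at 0.90 and Gnai1 at 0.89. Nsdhl and Sc5d encode later enzymes of cholesterol synthesis that act after lanosterol.

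Over the 11 lesioned mice, the mean level of the 8 genes correlated with the mean of 15 other sterol synthesis enzymes at 0.96 (Spearman 0.93, and 0.90 without the 2 mice farthest from the median) and with that of 10 fatty acid targets of SREBP at 0.83 (Spearman 0.85, and 0.77 without 2). It correlated with 10 genes of cholesterol efflux and turnover at -0.77 (Spearman -0.70, and -0.69 without 2). With group means removed these were 0.96, 0.81 and -0.75, and on slide 2 alone, with 8 lesioned mice, 0.96, 0.79 and -0.81. The lists share libraries with the 8 genes, and no p is given for such scores.

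Markers of several cell types also moved with the 8 genes, most of them the other way. Over the lesioned mice the mean level of the 8 genes correlated with that of 6 dividing-cell genes at -0.67 (Spearman -0.80, and -0.66 without the 2 farthest mice) and with that of 9 microglia and macrophage markers at -0.50 (Spearman -0.67, and -0.50 without 2). Within the 6 TC mice the values were -0.76 and -0.54, in the 8 lesioned mice of slide 2 they were -0.75 and -0.65, and with group means removed they were -0.64 (Spearman -0.62) and -0.45 (Spearman -0.39). Endothelium and mural cell markers were at -0.59 (Spearman -0.52, and -0.49 without 2) and uptake genes at -0.48 (Spearman -0.50, and -0.61 without 2). Neuron markers were at 0.50 (Spearman 0.45, and 0.88 without 2), astrocyte markers at 0.11, myelin markers at -0.15 and striatum and choroid plexus markers at -0.18. The neuron value was 0.33 (Spearman 0.37) without the WTC mouse of array M and 0.46 (Spearman 0.29) on slide 2. Within TC mice it was 0.49, and with group means removed 0.57. The WTC mouse of array M, lowest for the 8 genes with a mean of 10.48, had the highest dividing-cell level, 11.05. Its Ddx3y level was 6.89, against 9.65 to 10.82 in the other WTC mice. The dividing-cell means ran from 6.91 to 10.77 in TC mice, 6.74 to 7.48 in T, 9.39 to 11.05 in WTC and 6.56 to 7.33 in WT mice, and the microglia means from 11.29 to 13.30 in TC, 11.34 to 11.54 in T, 12.67 to 13.39 in WTC and 11.17 to 11.70 in WT mice. The part of these cell markers in the levels of the 8 genes was not tested.

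**Figure D4:**
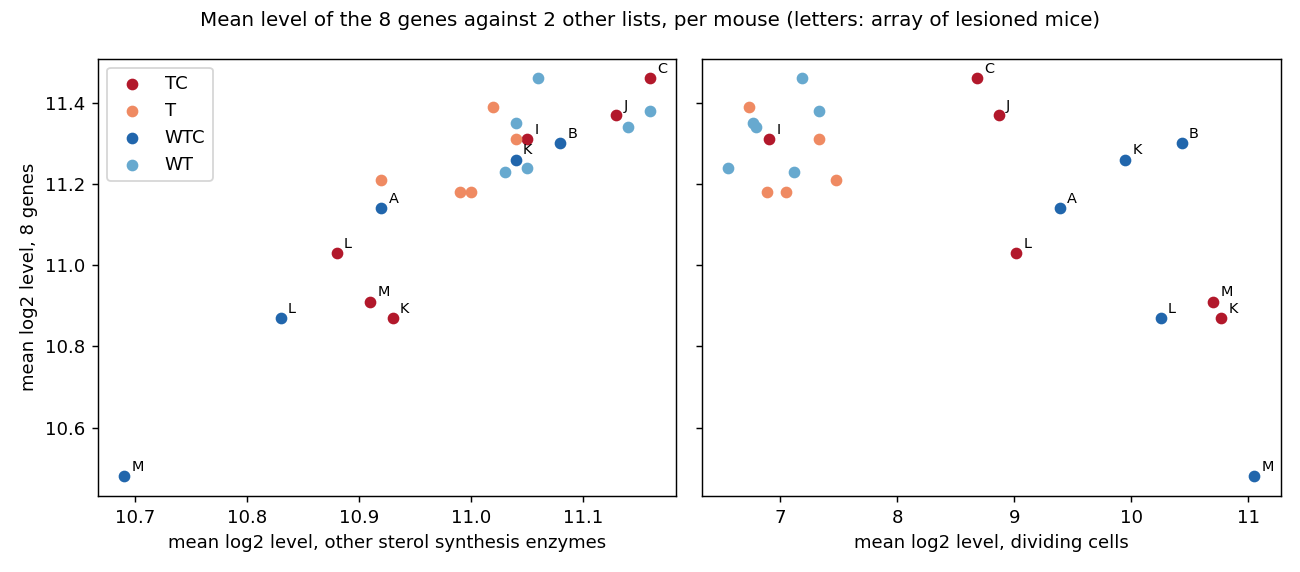
Mean log2 level of the 8 genes (y axis) against the mean log2 level of 15 other sterol synthesis enzymes (left x axis) and of 6 dividing-cell genes (right x axis), 1 point per mouse and letters naming the array of each lesioned mouse. The WTC mouse of array M is at the lower end on the left and at the lower right on the right, at 10.48.

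Of the 15 other sterol synthesis enzymes, 0 passed in any of the 5 comparisons (limma). In TC over T mice 11 of 15 ratios were above 0, with a median of 0.12, and in WTC over WT mice 5 of 15, with a median of -0.07. Ebp, the sterol isomerase, had the smallest p in both, with 0.42 ± 0.14 in TC over T and 0.46 ± 0.14 in WTC over WT mice (SE; adjusted p = 0.319 and 0.135). Sc5d and Lbr followed in TC over T, with 0.27 ± 0.11 and 0.28 ± 0.12. Mvd, the mevalonate diphosphate decarboxylase, and Acat2, which makes acetoacetyl-CoA, had -0.23 ± 0.09 and -0.19 ± 0.07 in WTC over WT.

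Of 8 genes for sterol sensing and SREBP processing, 0 passed in any comparison. Srebf1, the SREBP gene of lipid synthesis, had 0.37 ± 0.19 in TC over T mice (SE; limma, adjusted p = 0.46) and Scap, the SREBP escort, -0.09 ± 0.09. In WTC over WT mice Insig2, the other INSIG gene, had -0.21 ± 0.13 and Srebf2, the SREBP gene of sterol synthesis, 0.14 ± 0.12 (adjusted p = 0.396 and 0.56).

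Uptake and intracellular transport genes, the other side of cholesterol supply, also had 0 of 12 passing in any comparison. Their ratios were above 0 for 10 of 12 in TC over T and for 10 of 12 in WTC over WT mice, with a median of 0.20 in each. Npc2, which hands cholesterol out of lysosomes, had 0.74 ± 0.19 in TC over T and 0.58 ± 0.19 in WTC over WT mice (SE; limma, adjusted p = 0.274 and 0.156). Lipa, the lysosomal acid lipase, had 0.80 ± 0.27 in WTC over WT mice (adjusted p = 0.158).

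Efflux and turnover genes had 0 of 10 passing, with medians of 0.26 in TC over T and 0.33 in WTC over WT mice. Nr1h3, the sterol-activated receptor LXR-alpha, had 0.76 ± 0.18 in TC over T and 0.71 ± 0.18 in WTC over WT mice (SE; limma, adjusted p = 0.266 and 0.114). Cyp46a1, the neuronal enzyme that turns cholesterol into an oxysterol for export from the brain, had -0.51 ± 0.16 and -0.65 ± 0.16. Ch25h, an oxysterol-forming hydroxylase, had 2.31 ± 0.62 in WTC over WT mice, and Lcat, which esterifies cholesterol on lipoproteins, had 0.70 ± 0.17 in TC over T mice. Neuron markers had medians of -0.23 in TC over T and -0.21 in WTC over WT mice, and microglia and macrophage markers 0.82 and 1.29.

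Of 10 fatty acid targets of SREBP, 0 passed, and 9 of 10 were above 0 in TC over T mice and 6 of 10 in WTC over WT mice, with medians of 0.23 and 0.04. In TC over T mice Scd1 had 0.71 ± 0.17, Scd2 0.45 ± 0.11 and Fads2 0.32 ± 0.11 (SE; limma, adjusted p = 0.27, 0.265 and 0.351), all of them fatty acid desaturases. In WTC over WT mice Acly, which supplies acetyl-CoA, had -0.36 ± 0.13, Fasn, the fatty acid synthase, -0.22 ± 0.09, and Me1, which supplies NADPH, 0.39 ± 0.16. The difference of the lesion effects was above 0 for 10 of 10, with a median of 0.24. Myelin and oligodendrocyte markers, were above 0 for 10 of 10 in TC over T and in WTC over WT mice, with medians of 0.38 and 0.24, and their part in these values was not tested.

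**Figure D5:**
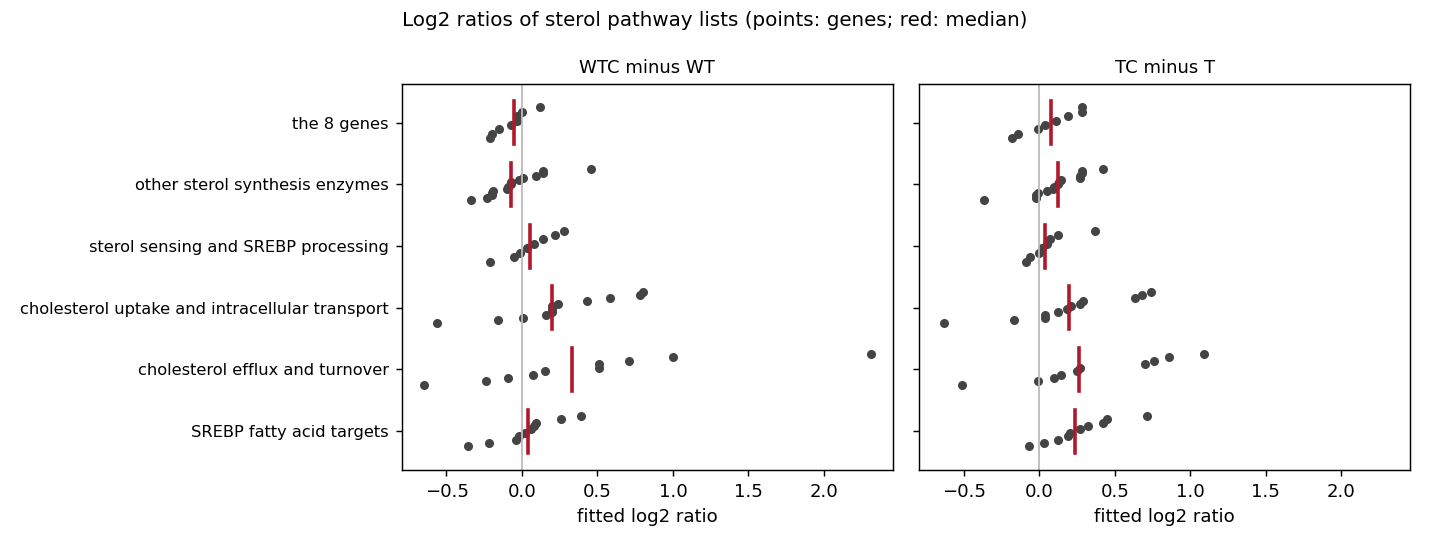
Fitted log2 ratio (x axis) of each gene (points) of 6 lists (rows) in WTC minus WT and TC minus T mice, with the median of a list in red. The 8 genes and the other synthesis enzymes lie around 0, with medians between -0.07 and 0.12, and the efflux list has medians of 0.33 in WTC minus WT and 0.26 in TC minus T mice.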

How the data were processed

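Cortex RNA of 22 mice was hybridised to 11 two-colour Agilent arrays, 1 mouse per channel, in 5 kinds of pairing: TC against WTC (3 arrays), TC against T (2), TC against WT (1), T against WT (3) and WTC against WT (2). The series' description speaks of repeated hybridisations, while each mouse is on 1 array here, so p-values measure the spread between mice, and precision is set by how many arrays there are. The fit of ratios gives each gene 1 variance for all groups. The median SD of all features was 0.24 in TC and in WTC, 0.13 in T and 0.14 in WT mice. P-values of T over WT thus also draw on the wider spread of lesioned mice. Those of comparisons with lesioned mice also draw on the narrower spread of intact mice. The authors deposited Agilent Feature Extraction output (version 10.7.3.1, per the file headers), whose median spot and background brightness are linear intensity values. The authors also deposited log2 ratios with p-values for 3 comparisons. The submitters' processing notes name limma without a version. The log base of that table is not stated in it and was taken from its match to the log2 ratios fitted here. Its p-value column for WTC minus WT was not used, as 766 cells exceed 1.

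Here limma 3.58.1 under R 4.3.3 applied normexp background correction (offset 50) and then loess within arrays, control and outlier spots having weight 0. A probe was kept if 5 or more of the 22 channels held it well above background and every array gave a value (35415 probes), and the brightest probe of a gene stood for it (25998 features). RefSeq symbols matched 48.1% of probes. The linear model (lmFit, eBayes, two-sided tests) had a dye term, 7 residual degrees of freedom and Benjamini-Hochberg adjustment over all features. Levels per mouse come from Aquantile-normalized channels. The separate-channel fit used an intraspot correlation of 0.315. The fits were tested on simulated channels, whose noise was independent between channels and equal in all groups. That test does not cover the wider spread of lesioned mice or the correlation within an array. The 8 genes and the lists were chosen with earlier results of these data known. Genes of other lists were named if called, otherwise the 3 with the smallest p in WTC minus WT and in TC minus T, with the 5 genes most correlated with the mean of the 8. Some genes that this rule names are not reported here. The alternatives were other background corrections, normalizations, filters, probe rules, dye and slide terms, label readings, subsets of arrays and separate-channel fits, of which those with array as a random block were chosen after seeing the data.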

Additional observations from a re-analysis of the deposited data

Results flagged for a closer look

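Among the 32 sets of levels (8 genes in 4 groups) in which the gap of the lowest or highest mouse to its neighbour was compared with the whole range, 2 had a mouse far from the rest, and chance gives about 1 in 20. Both concern Idi1. The WTC mouse of array M had an Idi1 level of 11.11 (log2), while the next WTC mouse had 11.60. The WT mouse of array B had 11.55, while the next WT mouse had 11.86.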

How the results depend on the processing

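For the 8 genes in 5 comparisons, 40 log2 ratios were recomputed under 29 other settings, and 1040 of 1136 values kept direction and side of the threshold. None of the 8 genes passed in the main fit, where almost no feature did, so the side of the threshold could hardly change. The count thus mostly tells of direction: 93 values changed sign and 3 came to pass. Insig1 in WTC minus WT mice was the 1 gene to pass, in 3 separate-channel fits (1 of 8 passing in each), at -0.53, at -0.54 with array as a random block, and at -0.56 when array I's TC mouse was left out too. Below, WTC minus WT is the lesion in wild type, TC minus T the lesion in transgenic mice, and their difference is the second minus the first. The cause of these changes was not tested, and most signs that turned belong to values near 0.

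Medians of the 8 genes moved as follows. With median centring they were -0.28 (WTC minus WT), 0.24 (TC minus WTC) and 0.28 (difference). Within slide 1 TC minus T was 0.25. With channel 2 labels TC minus T was 0.42, TC minus WTC 0.21 and the difference 0.38, and without arrays I, J and K they were 0.31, 0.23 and 0.32. In separate-channel fits WTC minus WT was -0.23, -0.23 with a random block, and -0.24 when array I's TC mouse was left out too.

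Signs turned with Agilent's processed signals for Idi1 0.01 and Cyp51 -0.11 (WTC minus WT), Fdps 0 (TC minus T) and Hmgcs1 -0.04 (difference). With median centring they turned for Sqle -0.11 and Cyp51 -0.15 (WTC minus WT), Hmgcs1 0.10, Fdps 0.23 and Sqle 0.09 (TC minus WTC) and Sqle 0.13 (difference). Without a dye term they turned for Hmgcs1 -0.02 and Fdft1 -0.01 (difference), and with slide as a block for Fdps 0 (TC minus WTC). Within slide 1 they turned for Fdps 0 and Lss 0.02 (WTC minus WT), Fdps 0.07 (TC minus T), and Fdft1 -0.12 (TC minus WTC) and -0.18 (difference). Within slide 2 they turned for Sqle -0.13 and Lss 0 (TC minus T) and Fdps 0.05 (TC minus WTC).

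In the separate-channel fit they turned for Sqle 0 and Cyp51 -0.23 (WTC minus WT), Sqle -0.04 and Insig1 -0.09 (TC minus T) and Fdps 0.05 (TC minus WTC). With a slide term the values were Cyp51 -0.15, Sqle -0.01 and Fdps 0.07. With a random block they were Sqle -0.01, Cyp51 -0.24, Sqle -0.04, Insig1 -0.10 and Fdps 0.05. Leaving out array I's TC mouse gave Cyp51 -0.24, Insig1 -0.22 and Fdps 0.03. Without the WTC mouse of array M they were Cyp51 -0.18, Sqle -0.06, Insig1 -0.12, Fdft1 -0.04 (TC minus WTC), and Hmgcs1 -0.04 and Fdft1 -0.07 (difference). With channel 2 labels they were Fdps 0.01, Idi1 0.03 and Cyp51 0 (WTC minus WT), Hmgcs1 0.43, Fdps 0.36 and Fdft1 0.22 (TC minus T), Hmgcs1 0.06, Fdps 0.14 and Sqle 0.07 (TC minus WTC) and Sqle 0.29 (difference). Without arrays I, J and K they were Lss 0.03 (WTC minus WT), Hmgcs1 0.21, Fdps 0.23 and Fdft1 0.06 (TC minus T), Hmgcs1 0.12, Fdps 0.18 and Sqle 0.11 (TC minus WTC) and Sqle 0.25 (difference).

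Leaving out each array in turn gave a median of -0.19 to -0.02 in WTC minus WT, lowest without array B, 0.03 to 0.14 in TC minus T, -0.14 to -0.07 in T minus WT, -0.03 (without array M, 7 of 8 below 0) to 0.18 (without array K) in TC minus WTC, and 0.04 to 0.19 in the difference. Signs turned for Idi1 (-0.18 to 0.06), Lss (-0.13 to 0.02) and Cyp51 (-0.06 to 0.04) in WTC minus WT, for Fdps (-0.05 to 0.03) and Sqle (-0.03 to 0.21) in TC minus T, for Hmgcs1 (-0.38 to 0.03), Fdps (-0.14 to 0.12), Idi1 (-0.03 to 0.33), Fdft1 (-0.02 to 0.30), Lss (-0.04 to 0.07) and Insig1 (-0.01 to 0.37) in TC minus WTC, and for Hmgcs1 (-0.13 to 0.15), Fdps (-0.03 to 0.16), Fdft1 (-0.10 to 0.11) and Sqle (-0.23 to 0.01) in the difference. Within slide 2 only TC minus T and TC minus WTC could be estimated. No paired analysis was possible because replicate numbers only name arrays, and each ratio already pairs the mice of 1 array. The probes standing for the 8 genes were well above background in 22 of 22 channels.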
